A study of Mus musculus with 311 samples.

Results

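The 130 animals described here are the 65 with the lowest and the 65 with the highest liver level of Trim30d among 311 F2 mice of the (C57BL/6J X C3H/HeJ) intercross, and the remaining 181 animals are called the middle animals. They were chosen by ranking all arrays on the Trim30d probe, so the gap in Trim30d itself is a description and carries no test. Every animal, in all 3 groups, came from parents that lacked ApoE and ate a high fat "Western" diet between 8 and 24 weeks of age, and females and males were both used. The groups therefore share genotype class, diet and age, and differ by rule only in Trim30d. Each array compared the liver RNA of 1 animal, labelled Cy3, with pooled RNA of the study's animals, labelled Cy5. Values are log10 ratios of the animal over the pool, 0 being the pool's level. All differences are Trim30d-low minus Trim30d-high, so a negative one is lower in Trim30d-low animals.

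Trim30d belongs to the tripartite motif (TRIM) family, proteins with a RING ubiquitin ligase domain, a B-box and a coiled coil. Many TRIM genes are switched on by interferon, and the mouse Trim30, Trim12 and Trim34 genes lie in a cluster on chromosome 7 that corresponds to the TRIM5 region in humans. In mice Trim30a is known to restrain Toll-like receptor signalling to NF-kappaB in macrophages. In an F2 intercross neighbouring genes are inherited in long parental blocks, so animals that differ at 1 gene tend to differ at others along the same chromosome. The animals' genotypes were not used here.

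The promoters of Trim30d, Trim34a, Trim12a, Trim30a and Trim21 are shown because the family is known for interferon control. They are RefSeq windows of the mouse assembly GRCm38.p6, from 250 bases before to 50 after the annotated start, written 5′ to 3′ on the gene's strand. Capitals mark every match to GAAANNGAAA or its other strand TTTCNNTTTC, the core of the interferon-stimulated response element, and the 2 matches in Trim21 overlap.
Trim30d (chr7:104507800-104508099, minus strand): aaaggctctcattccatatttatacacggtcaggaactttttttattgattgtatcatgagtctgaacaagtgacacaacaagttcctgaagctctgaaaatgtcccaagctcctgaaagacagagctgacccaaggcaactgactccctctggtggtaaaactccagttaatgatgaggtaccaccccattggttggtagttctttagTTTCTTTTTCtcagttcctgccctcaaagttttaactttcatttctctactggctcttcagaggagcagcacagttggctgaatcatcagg
Trim34a (chr7:104244207-104244506, plus strand): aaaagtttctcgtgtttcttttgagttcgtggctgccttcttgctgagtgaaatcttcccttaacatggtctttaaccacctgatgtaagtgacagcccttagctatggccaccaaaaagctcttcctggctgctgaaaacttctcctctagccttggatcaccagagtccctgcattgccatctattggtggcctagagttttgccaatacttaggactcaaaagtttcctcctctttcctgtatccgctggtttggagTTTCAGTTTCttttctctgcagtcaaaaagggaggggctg
Trim12a (chr7:104315446-104315745, minus strand): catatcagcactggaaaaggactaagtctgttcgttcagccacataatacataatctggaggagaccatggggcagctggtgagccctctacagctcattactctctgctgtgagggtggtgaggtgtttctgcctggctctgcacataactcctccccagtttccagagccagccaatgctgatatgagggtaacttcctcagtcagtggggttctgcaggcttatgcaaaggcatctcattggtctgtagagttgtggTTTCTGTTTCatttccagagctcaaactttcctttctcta
Trim30a (chr7:104465144-104465443, minus strand): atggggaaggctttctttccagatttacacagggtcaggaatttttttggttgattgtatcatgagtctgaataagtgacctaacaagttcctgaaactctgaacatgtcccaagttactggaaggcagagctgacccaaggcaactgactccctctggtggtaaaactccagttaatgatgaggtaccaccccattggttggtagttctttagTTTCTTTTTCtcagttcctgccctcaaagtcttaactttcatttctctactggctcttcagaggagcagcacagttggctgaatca
Trim21 (chr7:102565433-102565732, minus strand): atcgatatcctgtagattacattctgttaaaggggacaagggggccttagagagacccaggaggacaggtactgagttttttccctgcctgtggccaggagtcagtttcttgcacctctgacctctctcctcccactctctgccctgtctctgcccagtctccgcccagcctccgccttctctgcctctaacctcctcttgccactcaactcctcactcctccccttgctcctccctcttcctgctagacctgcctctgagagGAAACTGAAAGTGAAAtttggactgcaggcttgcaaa
All 5 windows shown held the element, and the window of Trim6, a TRIM gene that the comparison below also called, did not. It began 41 bases before the start in Trim30d, 36 before in Trim30a, and after the start in Trim34a and Trim12a (base 11 in each) and Trim21 (bases 14 and 20). A second annotated window of Trim30a also held it, and the windows of Neu3 and Oasl2 did not. The same letters occurred in 3.44% of 32851 promoter windows of this length. By gene, they occurred in 21 of the 50 measured interferon-stimulated genes that have a window (42%), and in 1079 of all 27025 genes with one (3.99%). Among the 16 interferon-stimulated genes with a window that the comparison below called, 6 held them (37.5%). These matches are descriptions of letters and not evidence of binding.

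Trim30d was measured by 1 probe. In Trim30d-low animals its log10 ratio ran from -0.840 to -0.344 with a median of -0.537, in Trim30d-high animals from 0.143 to 0.557 with a median of 0.231, and in the middle animals from -0.336 to 0.140 with a median of -0.00546. The medians of the Trim30d-low and Trim30d-high animals lay 5.86-fold apart. At the lower edge the 65th lowest animal stood at -0.344 and the 66th at -0.336, and at the upper edge the 65th highest stood at 0.143 and the 66th at 0.140. The levels formed a low hump and a larger upper one: 20 animals lay between -0.5 and -0.4, only 11 between -0.3 and -0.2, and 66 between -0.1 and 0. A total of 79 animals lay below -0.2 and 232 at or above it, so all Trim30d-low animals lie in the low hump, while the edge of the Trim30d-high animals cuts through a continuous run of values.

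The 2 groups were unlike in the Y-linked gene Eif2s3y, whose level splits the animals at -0.5 into Eif2s3y-low and Eif2s3y-high ones. Eif2s3y-high animals made up 35 of the 65 Trim30d-low animals (53.8%), 18 of the 65 Trim30d-high animals (27.7%) and 102 of the 181 middle animals (56.4%). The first 2 shares differed in Fisher's exact test (two-sided p = 0.00409). The differences, folds, slopes and limma p-values below therefore held this split as a covariate, except within 1 level of it. Medians and ranges of log10 ratios, and the overlaps read from them, are raw values that were not adjusted for it. Technical measures were close: the median number of missing values per array was 80 in both groups, the median array SD was 0.101 in Trim30d-low and 0.102 in Trim30d-high animals, and 35 Trim30d-low and 30 Trim30d-high animals had F2 numbers above the median.

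Called genes, those with a Benjamini-Hochberg adjusted p below 0.05 in limma over all 11386 other genes, numbered 269 (2.36%). Chromosome 7 held 91 of them among 894 tested (10.2%), of which 50 were lower (5.59%) and 41 higher (4.59%) in Trim30d-low animals. The other chromosomes held 167 among 9876 (1.69%), of which 125 were lower (1.27%) and 42 higher (0.425%). The remaining 11 were among 616 genes with no chromosome given (1.79%). On no other chromosome did the share pass 3.43% (chromosome 13), and the lowest autosomal share was 0.825% (chromosome 9).

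**Figure D1:**
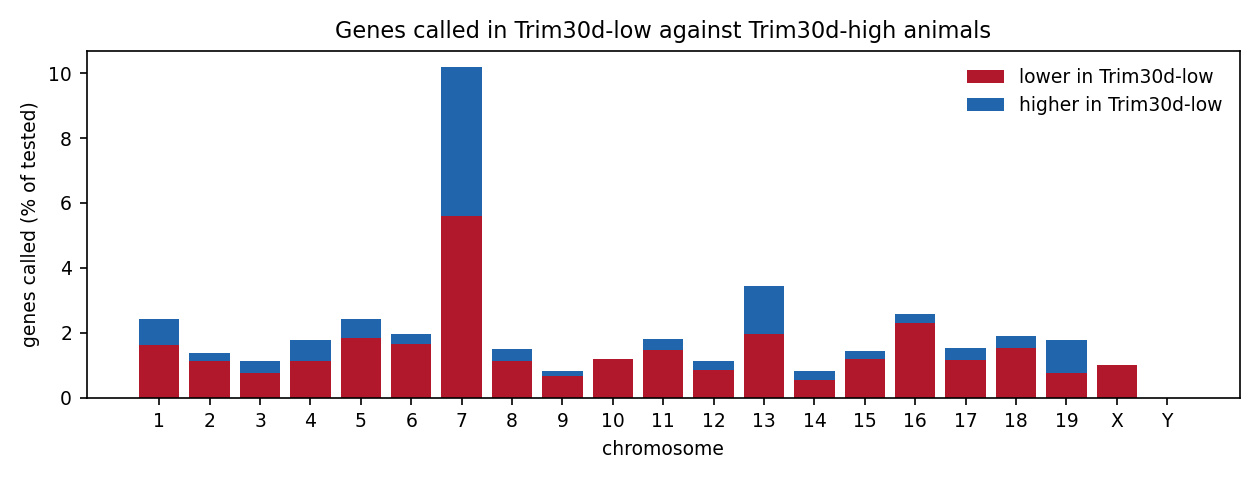
Share of tested genes called on each chromosome (y axis, percent; x axis, chromosome), stacked by direction in Trim30d-low against Trim30d-high animals. Chromosome 7 stands at 10.2% in both directions together, and no other chromosome passes 3.43%.

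Besides Trim30d, 6 TRIM genes of its chromosome 7 list were measured, and 5 were called: Trim34a, Trim12a and Trim30a were lower in Trim30d-low animals, and Trim6 and Trim21 were higher. Distances are given as places in the order of annotated genes, because the genome build of the files is not given in the sources used here. Trim34a, an interferon-inducible TRIM whose human relative restricts retroviruses, lies 15 genes before Trim30d. Its log10 ratio ran from -0.383 to -0.141 with a median of -0.239 in Trim30d-low animals, and from -0.00552 to 0.274 with a median of 0.121 in Trim30d-high animals. The groups did not overlap. The difference was -0.371 (SE 0.0103), or 2.35-fold lower in Trim30d-low animals (limma adjusted p = 3.39e-65). Only 2 of the 894 chromosome 7 genes separated the groups completely (0.224%), Trim34a and Neu3, and no gene of another chromosome did.

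Trim12a, a mouse relative of the human restriction factor TRIM5, lies 11 genes before Trim30d. It ran from -0.489 to 0.0345 with a median of -0.204 in 65 Trim30d-low animals, and from 0.0309 to 0.351 with a median of 0.177 in 64 Trim30d-high animals. The groups overlapped only between 0.0309 and 0.0345. The difference was -0.365 (SE 0.0162), 2.32-fold lower (limma adjusted p = 4.56e-43), and a second probe of Trim12a gave -0.226. Trim30a, a paralog of Trim30d, lies 2 genes before Trim30d. Its values ran from -0.404 to 0.112 with a median of -0.107 in 65 Trim30d-low animals, and from -0.124 to 0.273 with a median of 0.0635 in 63 Trim30d-high animals, so the groups overlapped over much of their range. Its difference of -0.152 (SE 0.0169) was 1.42-fold (limma adjusted p = 1.4e-12). Trim30a, Trim12a, Trim34a and Trim30d are related genes with similar stretches of sequence, and cross-hybridization between their probes was not tested.

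Trim21, the cytosolic receptor for antibody-coated viruses, lies 148 genes before Trim30d and moved the opposite way. Trim21 ran from -0.069 to 0.234 with a median of 0.0635 in Trim30d-low animals, and from -0.196 to 0.0827 with a median of -0.108 in Trim30d-high animals. The ranges overlapped, and the difference of 0.168 (SE 0.00993) was 1.47-fold higher in Trim30d-low animals (limma adjusted p = 1.73e-31). Trim6, which in human cells builds free ubiquitin chains that activate the kinase IKK-epsilon, lies 17 genes before Trim30d. Trim6 had medians of 0.0415 in Trim30d-low and -0.00878 in Trim30d-high animals with ranges that overlapped widely, a difference of 0.0732, 1.18-fold higher (limma adjusted p = 5.61e-08). Trim3, a neuronal TRIM ligase 71 genes after Trim30d, gave a difference of -0.00539 that was not called (adjusted p = 0.876). On the other chromosomes limma called 0 of 22 measured TRIM genes, and 2 had an unadjusted p below 0.05 (9.09%, against 12.7% of all 9876 genes there).

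**Figure D2:**
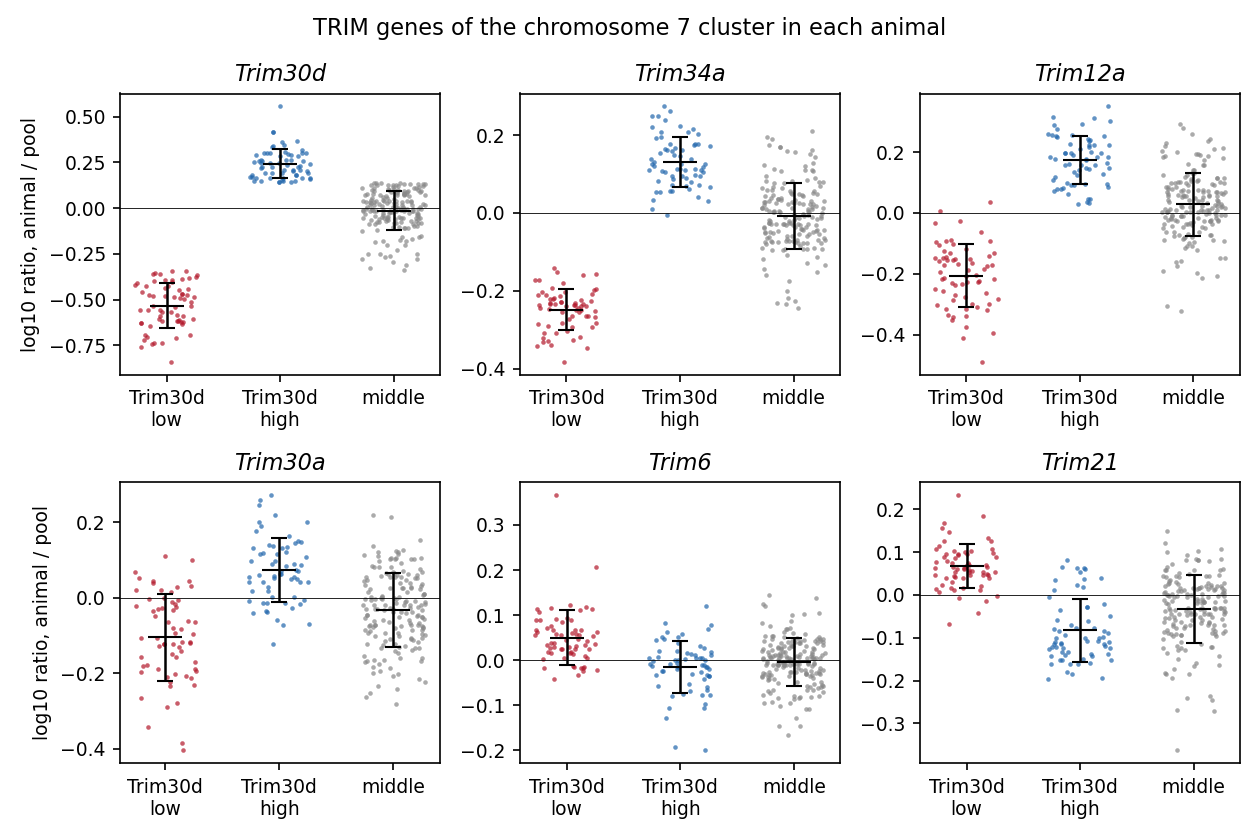
Log10 ratio of animal over pool (y axis) for Trim30d and 5 TRIM genes of chromosome 7 in each animal; points are animals, bars the mean and SD, and panels have separate scales. Trim34a separates the Trim30d-low animals (-0.383 to -0.141) from the Trim30d-high animals (-0.00552 to 0.274), and Trim6 and Trim21 lie higher in the Trim30d-low animals.

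The closest neighbours that are not TRIM genes were not called. Within 50 annotated genes of Trim30d 16 genes were measured, of which 4 were called (25%), all TRIM genes and all before Trim30d. Of the 16, 10 were olfactory receptor genes, which sense odorants in the nose, and limma called 0 of them (1 at an unadjusted p below 0.05). Among all 46 measured olfactory receptor genes of chromosome 7 limma called 0 (4 unadjusted). The nearest of them that fall under the rule for named genes, Olfr644, Olfr649, Olfr651, Olfr658, Olfr661, Olfr669 and Olfr683, had differences from -0.00955 to 0.013, and Usp17la, a deubiquitinating enzyme gene, had 0.0367 (adjusted p = 0.26).

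Called genes lay along much of the chromosome, and their frequency did not fall steadily with distance. Before Trim30d the share was 40% within 50 genes (4 of 10) and 34.9% at 151 to 400 genes (22 of 63), and after it 0% (0 of 6) and 21.3% (13 of 61). Of the 16 genes measured within 50 genes, 10 were olfactory receptor genes, and whether these are expressed in liver was not tested. The shares so close to Trim30d rest on these 16 genes, and whether their kind affects the shares was not tested. Both sides together, at 51 to 150 genes away 3 of 36 were called (8.33%), at 151 to 400 genes 35 of 124 (28.2%), at 401 to 800 genes 24 of 183 (13.1%), and farther out 25 of 535 (4.67%). Of the 600 genes measured before Trim30d 70 were called, and of the 294 measured after it 21, so more genes were also measured before it. The farthest called genes lay 2506 genes before and 935 after. Directions were mixed in every zone: at 151 to 400 genes 20 were lower and 15 higher in Trim30d-low animals.

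**Figure D3:**
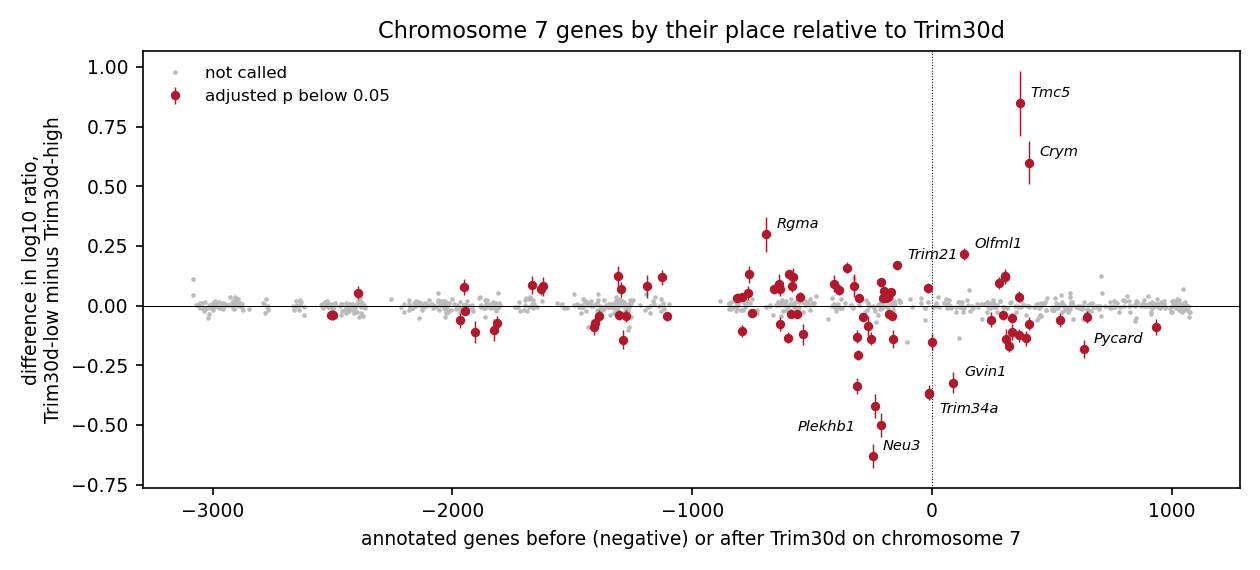
Difference in log10 ratio, Trim30d-low minus Trim30d-high (y axis), for each measured gene of chromosome 7 against its place in gene order relative to Trim30d (x axis); red points are called and carry 95% intervals. The largest differences, from -0.63 (Neu3) to 0.848 (Tmc5), lie within 403 genes of Trim30d, and Rgma lies 693 genes before it.

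The lower genes of chromosome 7 were led by Neu3, a plasma membrane sialidase that trims gangliosides, 248 genes before Trim30d. Neu3 ran from -1.08 to -0.211 with a median of -0.46 in Trim30d-low animals, and from -0.112 to 0.487 with a median of 0.129 in Trim30d-high animals. The groups did not overlap, and the difference was -0.63 (SE 0.0253), 4.27-fold lower in Trim30d-low animals (95% interval 3.8 to 4.79, limma adjusted p = 1.63e-47). Plekhb1, a pleckstrin homology domain protein 212 genes before, ran from -0.687 to -0.0182 with a median of -0.329 in Trim30d-low animals, and from -0.272 to 0.366 with a median of 0.147 in Trim30d-high animals. Its groups overlapped at the edges, and it was 3.16-fold lower (adjusted p = 7.7e-39). Chrdl2, a secreted antagonist of bone morphogenetic proteins, had medians of -0.281 in Trim30d-low and 0.0883 in Trim30d-high animals and was 2.64-fold lower (adjusted p = 9.29e-30). Aqp11, an intracellular water channel, had medians of -0.227 in Trim30d-low and 0.157 in Trim30d-high animals and was 2.17-fold lower (adjusted p = 1.6e-37). Myo7a, the unconventional myosin of inner ear hair cells, ran from -0.294 to -0.00465 in Trim30d-low animals and from -0.105 to 0.276 in Trim30d-high animals, with a difference of -0.206 (adjusted p = 4.87e-37).

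The genes that were higher in Trim30d-low animals were led by Tmc5, a transmembrane channel-like gene 365 genes after Trim30d. Tmc5 ran from -1.03 to 0.689 with a median of 0.196 in Trim30d-low animals, and from -1.32 to 0.28 with a median of -0.917 in Trim30d-high animals. The ranges overlapped almost throughout although the medians lay far apart, and the difference was 0.848 (SE 0.069), 7.05-fold higher (95% interval 5.15 to 9.65, limma adjusted p = 1.02e-20). Crym, which encodes mu-crystallin, a thyroid hormone binding protein, ran from -0.832 to 0.496 with a median of 0.129 in Trim30d-low animals, and from -0.944 to 0.339 with a median of -0.54 in Trim30d-high animals. It too overlapped widely, and it was 3.97-fold higher (adjusted p = 6.39e-23). Rgma, a co-receptor for bone morphogenetic proteins, had medians of 0.117 in Trim30d-low and -0.239 in Trim30d-high animals (1.99-fold higher, adjusted p = 1.26e-10). Olfml1, a secreted olfactomedin-like protein, had medians of 0.0959 in Trim30d-low and -0.135 in Trim30d-high animals (1.64-fold higher, adjusted p = 7.77e-31).

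Several called genes of chromosome 7 have known parts in innate immunity or gene control. Gvin1, a very large interferon-inducible GTPase 89 genes after Trim30d, had medians of -0.196 in Trim30d-low and 0.0921 in Trim30d-high animals (difference -0.322, adjusted p = 1.22e-24). Its 6 probes disagreed, with differences of -0.322, -0.114, -0.00653, 0.00142, 0.13 and 0.489, so no direction is given for the gene. Pycard, the ASC adaptor that assembles inflammasomes, ran from -0.29 to 0.129 with a median of -0.0862 in Trim30d-low animals, and from -0.125 to 0.553 with a median of 0.094 in Trim30d-high animals. The groups overlapped, and Pycard was 1.52-fold lower in Trim30d-low animals (adjusted p = 8.93e-14). Sox6, a developmental transcription factor, had a difference of -0.168 (adjusted p = 7.94e-20).

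Irf7, the transcription factor that amplifies type I interferon production, also lies on chromosome 7, 935 genes after Trim30d, and is the called gene farthest out on that side. Irf7 ran from -0.421 to 0.226 with a median of -0.0406 in Trim30d-low animals, and from -0.163 to 0.307 with a median of 0.0626 in Trim30d-high animals. The groups overlapped, and it was 1.23-fold lower in Trim30d-low animals (difference -0.0915, SE 0.017, adjusted p = 6.15e-05). Its neighbours Ifitm1 and Ifitm2, interferon-induced membrane proteins that block viral entry, had differences of -0.0335 (adjusted p = 0.125) and -0.0268 (adjusted p = 0.457), and the exonuclease gene Isg20 on the other side had 0.0167 (adjusted p = 0.383).

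Away from chromosome 7, interferon-stimulated genes were called more often than genes at large, and every called one was lower in Trim30d-low animals. Of 62 measured, 19 were called lower and 0 higher (30.6%, against 1.69% of all genes on these chromosomes), and 56 had a negative difference (90.3%, against 48%). The median difference was -0.0425, against 0.000677 over all these genes. The count was 1 in animals with F2 numbers up to the median (30 Trim30d-low, 35 Trim30d-high) and 6 in those above it (35 and 30). Each part held fewer animals than the whole comparison. The chromosome 7 calls went from 91 to 51 and 57, and those of all genes on other chromosomes from 167 to 7 and 68. Why the counts fell, and why they differed between the parts, was not tested. In whole liver, fewer cells of a type and less RNA per cell cannot be told apart.

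The changes of single interferon targets were small beside the largest ones on chromosome 7. Oasl2, an antiviral member of the oligoadenylate synthetase family, ran from -0.506 to 0.23 with a median of -0.0789 in 64 Trim30d-low animals, and from -0.242 to 0.296 with a median of 0.0627 in 65 Trim30d-high animals. The groups overlapped over most of their range, and the difference was -0.114 (SE 0.023), 1.3-fold lower (limma adjusted p = 0.000418). Oas2, which makes the oligoadenylates that activate RNase L, ran from -0.401 to 0.243 with a median of -0.041 in Trim30d-low animals, and from -0.172 to 0.343 with a median of 0.0941 in Trim30d-high animals. Its overlap was as wide, with a 1.29-fold lower level (adjusted p = 2.97e-05).

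The genes Oas1a and Oas1g of the same enzyme family had differences of -0.0758 (adjusted p = 0.000455) and -0.086 (adjusted p = 0.000976). Near-identical Oas1 copies exist, and cross-hybridization was not tested. Parp14, a mono-ADP-ribosyltransferase, had -0.0568, and Ifi203 and Ifi205, relatives of the cytosolic DNA sensors, had -0.0693 and -0.0691. Second probes gave -0.0442 for Oas1a, and for Ifi203 -0.0357, which was not called (adjusted p = 0.11). The Schlafen genes Slfn2 and Slfn4, which act in T cells and myeloid cells, had -0.0519 and -0.0735. On the probes used, Parp14, Ifi203, Ifi205, Slfn2 and Slfn4 were called, with adjusted p from 0.0011 (Parp14) to 0.00396 (Slfn4). On the other chromosomes 18 receptors, sensors and kinases upstream of these targets were measured. Of these 2 were called (11.1%, against 1.69% of all genes), both lower: Ifnar2, a chain of the type I interferon receptor (difference -0.0408), and Ifngr1, a chain of the type II receptor (difference -0.039).

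**Figure D4:**
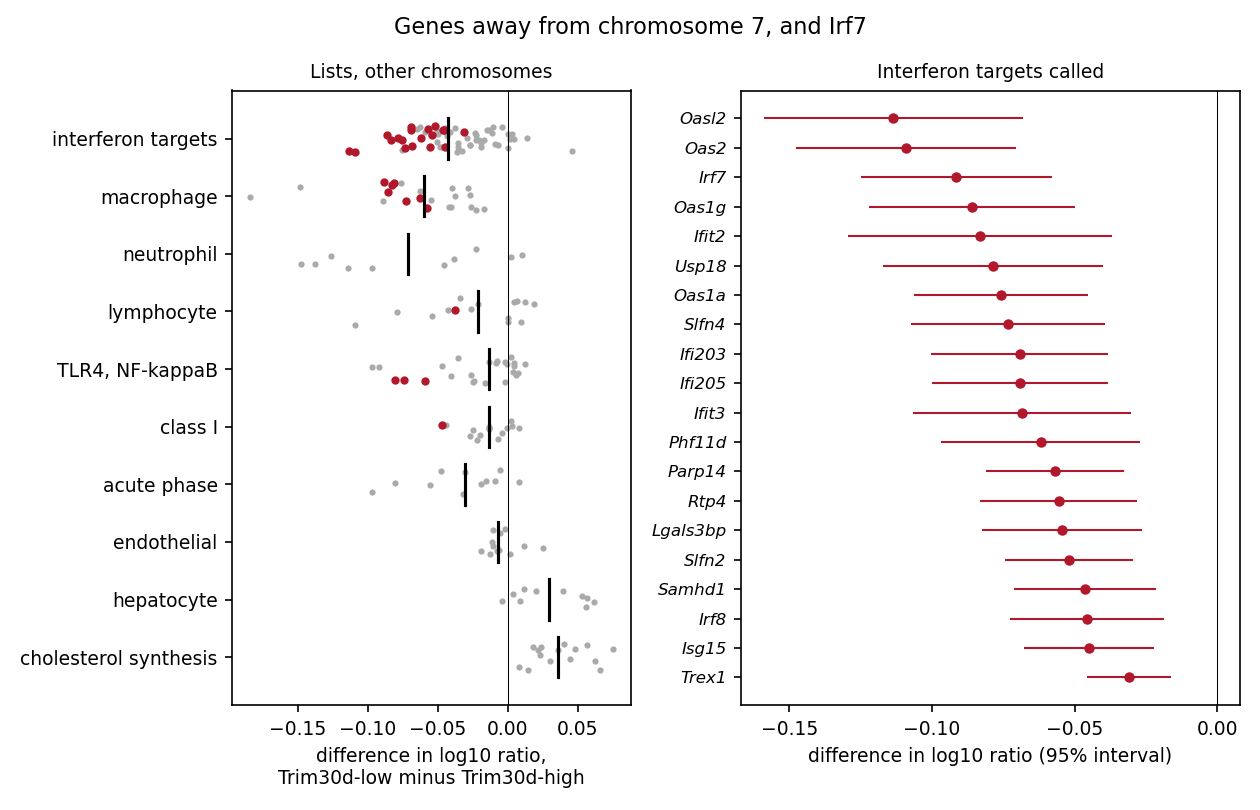
Left, difference in log10 ratio, Trim30d-low minus Trim30d-high (x axis), of the measured genes of 10 lists away from chromosome 7, with called genes in red and list medians as bars. Right, the called interferon targets and Irf7 with 95% intervals, all below 0. No difference in the right panel lies beyond -0.114 (Oasl2), whose interval reaches -0.159.

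Macrophage markers moved with the interferon targets. On the other chromosomes 22 markers of Kupffer cells and other macrophages were measured. Of these 7 were called, all lower in Trim30d-low animals (31.8%, against 1.69%). All 22 differences were negative, and their median was -0.0599. The mean log10 ratio of the list ran from -0.208 to 0.116 with a median of -0.079 in Trim30d-low animals, and from -0.195 to 0.229 with a median of 0.0269 in Trim30d-high animals. Csf1r, the receptor that macrophages need to survive, had medians of -0.0584 in Trim30d-low and 0.0479 in Trim30d-high animals (difference -0.0886, adjusted p = 0.000482). Clec4f, a lectin of Kupffer cells, had medians of -0.0576 in Trim30d-low and 0.0554 in Trim30d-high animals (difference -0.0856, adjusted p = 0.00812). With the macrophage mean as a further covariate, chosen after seeing the data, 1 interferon target was called in place of 19, and 49 genes on other chromosomes in place of 167. Under the same covariate Trim34a, Trim12a, Trim30a, Trim6 and Trim21 stayed past the threshold, Trim30a with a difference of -0.0931, and chromosome 7 held 67 called genes. Irf7, at -0.0575, was no longer called. This covariate averages the same 22 markers, 7 of them among the 167, so it takes up part of the differences that go with them. Why calls were lost or kept under it was not tested.

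The other immune lists were also counted on chromosomes other than 7. They are read against 1.69% of all genes called on these chromosomes, and 12.7% at an unadjusted p below 0.05 (1256 of 9876, of which 729 were lower and 527 higher). In the Toll-like receptor 4 and NF-kappaB list 3 of 25 were called (12%), all lower: Tlr4, the endotoxin receptor (difference -0.0593, adjusted p = 0.0131), and the cytokine genes Tnf (difference -0.0804, adjusted p = 0.0329) and Il1b (difference -0.0742, adjusted p = 0.0258). C3H/HeJ mice are known for a defective Tlr4 gene, which lies on chromosome 4. Of 7 inflammasome genes away from chromosome 7 only Il1b was called, all 7 differences were negative with a median of -0.043, and 6 had an unadjusted p below 0.05 (85.7%). Of 15 class I presentation genes 1 was called (6.67%), H2-M3, which presents formylated peptides (difference -0.0466, adjusted p = 0.0479). Of 15 lymphocyte markers 1 was called (6.67%), Klrk1, the activating receptor NKG2D (difference -0.038, adjusted p = 0.0296). Of 10 neutrophil markers limma called 0, while 5 had an unadjusted p below 0.05 (50%), all lower, and the list's median difference was -0.0713. The calprotectin subunit gene S100a9 had the values -0.614 to 0.497 with a median of -0.208 in 64 Trim30d-low animals and -0.502 to 1.07 with a median of -0.0296 in 65 Trim30d-high animals (adjusted p = 0.121). Cd14, the endotoxin co-receptor, had a difference of -0.0966 (adjusted p = 0.0558).

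Metabolic and hepatocyte lists, counted on chromosomes other than 7, held no called gene. Their counts at an unadjusted p below 0.05 are set against 12.7% of all genes on these chromosomes. All 15 genes of cholesterol synthesis measured there had a positive difference, with a median of 0.036. But limma called 0 of them (2 at an unadjusted p below 0.05, or 13.3%), and Hsd17b7, an enzyme of the late steps of that pathway, had 0.0622 (adjusted p = 0.183). Of 10 hepatocyte markers 9 had a positive difference, with a median of 0.0297, 2 had an unadjusted p below 0.05 (20%), and Ass1, a urea cycle enzyme, had 0.0529 (adjusted p = 0.316). The list of ubiquitin conjugation and autophagy partners had a median of 0.000322 over 13 genes, with 0 called by limma and 0 at an unadjusted p below 0.05. Limma also called 0 members of the following lists, with counts at an unadjusted p below 0.05 in brackets. They were class II presentation (0 of 9), acute phase (2 of 11, or 18.2%), endothelial (0 of 12) and stellate cell and matrix (5 of 17, or 29.4%). The acute phase and stellate cell genes so counted were all lower in Trim30d-low animals. Further lists were bile duct (0 of 5), pancreas (0 of 7), muscle (0 of 3), fatty acid synthesis (1 of 15) and fatty acid oxidation (2 of 13). The last were female-biased (0 of 14), male-biased (1 of 13) and cell division genes (2 of 13).

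Among all genes of other chromosomes the smallest p belonged to Fgf2, a growth factor gene on chromosome 3. Fgf2 ran from -0.054 to 0.265 with a median of 0.0705 in Trim30d-low animals, and from -0.255 to 0.135 with a median of -0.0884 in Trim30d-high animals. The ranges overlapped, and it was 1.46-fold higher in Trim30d-low animals (difference 0.164, SE 0.0128, limma adjusted p = 6.57e-22). It stayed past the threshold under all 21 alternatives. The other large positive differences were Adgrv1 at 0.143, an adhesion receptor whose second probe gave -0.0264, Slc2a4, the insulin-responsive glucose transporter, at 0.137, Stap1, a signalling adaptor, at 0.116, Tmprss4, a membrane serine protease, at 0.113, and the olfactory receptor gene Olfr1442 at 0.0919.

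The largest negative difference on other chromosomes was that of Ppbp. Ppbp, a platelet chemokine, ran from -0.488 to 0.485 with a median of -0.144 in Trim30d-low animals, and from -0.384 to 1.02 with a median of 0.0646 in Trim30d-high animals. The groups overlapped over most of this range, and the difference was -0.187 (1.54-fold lower, adjusted p = 0.0012). The natural killer cell receptor genes Klrd1 and Klre1 had -0.128 and -0.107, the monocyte gene Ly6c2 -0.121 and the myeloid and lymphoid gene Plac8 -0.107. The NADPH oxidase subunit gene Ncf4 had -0.102, Rac2, a GTPase of blood cells, -0.101, Fcgr1, the high-affinity receptor for IgG, -0.0984, and Cd72, a B cell co-receptor, -0.0962. Plxdc2 had -0.105, Wt1, a transcription factor of mesothelial and stellate cells, -0.11, and Gmds, an enzyme of fucose synthesis, -0.0958. A second Gmds probe gave 0.00303.

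Eif2s3y-low and Eif2s3y-high animals were also compared apart. In Eif2s3y-low animals 57 genes of chromosome 7 were called (6.38%) and 18 on other chromosomes (0.182%), and in Eif2s3y-high animals 50 genes of chromosome 7 (5.59%) and 27 on other chromosomes (0.273%). The difference of Trim34a was -0.367 in Eif2s3y-low and -0.376 in Eif2s3y-high animals, and that of Fgf2 was 0.166 in Eif2s3y-low and 0.16 in Eif2s3y-high animals. Oas2 had -0.0874 in Eif2s3y-low and -0.143 in Eif2s3y-high animals. The interaction term in limma called 0 of 11386 genes, while 598 (5.25%) had an unadjusted p below 0.05.

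The 181 middle animals, whose Trim30d values entered the ranking but whose other genes the choice of the extremes did not use, were fitted apart. There each gene's log10 ratio was fitted on that of Trim30d, so a positive slope means a gene that is lower where Trim30d is lower. In these animals 24 genes of chromosome 7 had a called slope (2.68%), against 3 of the 9876 on other chromosomes (0.0304%), which were Fgf2 and, named after their values were seen, Crygb and Pcsk1. At an unadjusted p below 0.05 the counts were 120 (13.4%) and 608 (6.16%). Trim34a had a slope of 0.542 (limma adjusted p = 1.24e-23), Trim12a 0.573 (7.66e-15), Trim30a 0.271 (0.00283) and Neu3 0.792 (4.04e-11). Trim21, Crym and Tmc5 had slopes of -0.204 (0.0146), -0.853 (0.000242) and -1.2 (0.00519), so these too kept the direction seen between the extremes. Trim6 had -0.0316 and was not called (adjusted p = 0.903).

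Of the 91 chromosome 7 genes called between the extremes 87 had a slope in the same direction in the middle animals (95.6%), against 56.4% of the 803 not called. Of the 167 called on other chromosomes 135 did so (80.8%), against 53.1% of the 9709 not called, and Fgf2, with a slope of -0.289 (limma adjusted p = 1.75e-05), was the only one of the 167 with a called slope. Of the 19 called interferon targets 18 kept their direction, and 8 of them had an unadjusted p below 0.05, but limma called 0. Irf7 had a slope of 0.151 (adjusted p = 0.722), and Oas2 had 0.172 (adjusted p = 0.718).

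**Figure D5:**
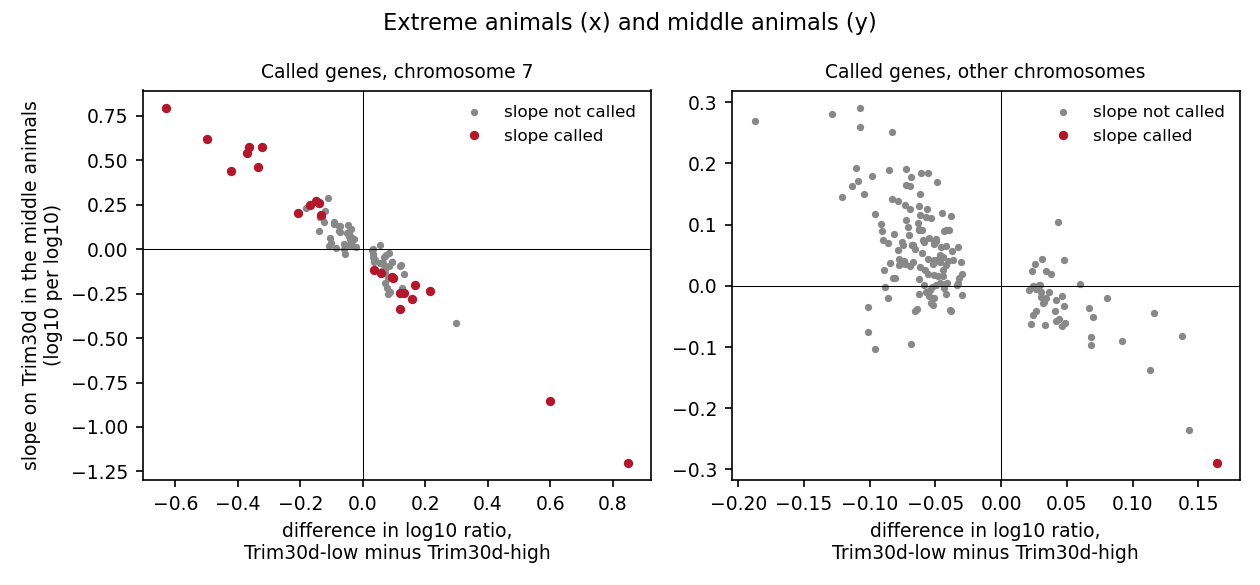
Slope on Trim30d in the 181 middle animals (y axis, log10 ratio per log10 ratio) against the difference Trim30d-low minus Trim30d-high (x axis, log10 ratio) for called genes of chromosome 7 (left, 91 genes) and other chromosomes (right, 167 genes); red points have called slopes. Points in the upper left and lower right quadrants have the same direction in both, 87 of 91 on the left and 135 of 167 on the right.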

How the data were processed

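Liver RNA of 311 animals was measured on 2-colour arrays, 1 array per animal. The authors deposited ratios limited to -2 and 2, read here as log10 ratios of each animal over the pool. How they were normalized, and the genome build, is not given in the sources used here. From the values themselves the base and direction were derived: the mean of 10 to the power of the value was 1.1 for Eif2s3y and 1.06 for Kdm5d, near the 1 that a pool requires, against 15.3 and 5.76 with the sign turned. Of 48205 pairs of arrays 131 had r under -0.3 (lowest -0.435), but the dyes are stated per the labels, so all arrays were read the same way. Missing values made up 0.745%, and 1990 values sat at -2 or 2. Array SDs ran from 0.0658 to 0.206. The animals are unreplicated and separate, and their number limits the precision. The title was followed for 1 sample whose source name carries another F2 number.

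Of 23388 probes 13645 named 1 gene, 48 several and 9695 none in the platform's table. Names were updated through a RefSeq table of GRCm38.p6 (Entrez ID for 12653, accession for 4, current symbol for 214, older symbol for 93, while 681 kept the platform's name), which also gave chromosomes and gene order. Probes on at least 95% of arrays were kept (22863), and 1 probe per gene was used, the one with fewest missing values, the first at ties (11387 genes, Trim30d included). Groups were compared with limma 3.58.1 in R 4.3.3 (lmFit, eBayes), with the Eif2s3y split as a covariate and Benjamini-Hochberg adjustment at 0.05. The fit was tested on simulated data. Figures used Python 3.11.15 and matplotlib 3.10.9. Probe sequences were not used here.

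The members, gene lists and tests were chosen with earlier results of these data known. Named genes were the TRIM genes of the cluster; the 15 largest called differences and the 6 nearest measured genes on each side on chromosome 7; the 20 largest on other chromosomes; the 10 interferon targets of smallest p and those on chromosome 7; up to 2 called members, or else that of smallest p, of each other list; Crym, Tmc5, Tlr4 and Y-linked genes. Not every gene so named is described. The alternatives tried were other covariates, other numbers of animals, ranking within each Eif2s3y level, the slope over all arrays, either part of the F2 numbers divided at their median (186), arrays left out, normalizations, probe choices, filters and robust moderation.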

Additional observations from a re-analysis of the deposited data

Results flagged for a closer look

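Probes with no gene name were outside the comparisons above. Of 9528 such probes 129 were called between Trim30d-low and Trim30d-high animals (1.35%, against 1.91% of the 13334 named probes), 96 lower and 33 higher in Trim30d-low animals. The largest differences were 0.723 on the log10 scale, or 5.29-fold higher, and -0.317, or 2.07-fold lower. Their places on the chromosomes were not used here.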

How the results depend on the processing

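The differences of Trim34a, Trim12a, Trim30a, Trim21, Neu3, Plekhb1, Chrdl2, Aqp11, Tmc5, Crym and Fgf2 kept their direction and their side of the threshold under every alternative that included them, Trim34a between -0.46 and -0.299. The filter for probes on every array left out Trim34a, Trim12a, Trim30a, Trim21 and Plekhb1, and it kept 35 of the 54 called named genes. Over the 54 called named genes and 21 alternatives, wherever a gene was included, 903 values stayed past the threshold, 210 lost it in 37 genes and 2 turned sign: Gvin1 with its most variable probe (0.489) and H2-M3 with the macrophage covariate (0.00415). The uncalled difference of Trim3 turned to 0.00213 with no covariate and to 0.0115 in Eif2s3y-high animals. Dividing the animals by F2 number or by Eif2s3y gave fewer calls. With F2 numbers up to the median, chromosome 7 had 51, other chromosomes 7 and interferon targets 1, and above the median 57, 68 and 6. In Eif2s3y-low animals these were 57, 18 and 1, and in Eif2s3y-high animals 50, 27 and 5. Probes on every array, which leave fewer genes, gave 54 on chromosome 7, and 14 called slopes in the middle animals. On other chromosomes 633 were called with no covariate (30 interferon targets), 549 with 40 animals against 40, and 545 with the slope over all arrays, and the cause was not tested. Covariates chosen after seeing the data gave 49 there with the macrophage mean (29 of the 167 among them, and 1 interferon target) and 29 with the interferon mean (22 of the 167). Both means include genes among the 167, so they take up part of those differences, and the cause of the lower counts was not tested. The interaction gave 1 gene with 5 principal components, against 0. Ranking by another Trim30d probe was not run, because only 1 is named. No paired analysis was possible because all animals form 1 labelled group.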
